A study of Drosophila melanogaster with 10 samples.

Results

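The genes described here are 10 listed cell adhesion molecules of the mushroom body: Fas1, Fas2, Fas3, Nrg, Dscam1, Dscam2, Dscam4, CadN, CadN2 and Ten-a. They were found by gene name in the deposited expression table and joined by FlyBase identifier to the read counts. All 10 were present there, among 23882 counted features. Their levels were measured by bulk RNA-seq (SMART-seq) of Kenyon cells (KCs), the intrinsic neurons of the mushroom body, sorted from pooled central brains. The brains were those of females dissected at eclosion (day 0). The genotypes dSERT16 and dSERT4 were compared, with 5 samples each. By the sample labels, 1 sample of each genotype carried each of 5 dates, read here as collection dates (replicates 1 to 5).

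The dSERT16 flies were homozygous for an imprecise P-element excision in the serotonin transporter gene (SerT), where sequence around the start of transcription, outside the coding part, is lost. The dSERT4 flies were homozygous for a background-matched control allele that itself carries a smaller deletion. Flies of both genotypes carried Mef2(P247)-gal4 and UAS-nls.GFP, and GFP-positive cells were sorted after the optic lobes had been removed. Each value is an average over KC classes sampled unequally, since by the study's account α′/β′ cells are under-represented with this driver. The study analysed replicates 2 to 5 and set replicate 1 aside after a principal component analysis, and the comparison of the genotypes below follows it (n = 4 per genotype). In bulk samples, fewer cells of a type and less RNA per cell cannot be told apart.

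Adhesion molecules on the axon surface let KC axons bundle, branch and settle in the correct lobe of the mushroom body. Fas2, an immunoglobulin (Ig) protein related to the vertebrate NCAM, is the classical marker of the α/β lobes, is weaker in γ axons and is not seen in α′/β′ axons. Fas1 is a membrane-anchored protein of the fasciclin domain family, Fas3 is an Ig protein that binds to itself, and Nrg is the fly L1-type protein that links the membrane to ankyrins. Dscam1 gives rise to a very large number of isoforms by alternative splicing and separates the sister branches of KC axons, and Dscam2 and Dscam4 are its paralogs. CadN and CadN2 are classical cadherins that bind β-catenin inside the cell, and Ten-a is a teneurin that matches synaptic partners in the antennal lobe.

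Between 18446396 and 69997102 reads per sample fell on genes. The 12 listed KC genes (among them ey, Mef2, toy, prt and sNPF) had mean levels of 479.9 to 2871 CPM (read counts scaled to the size of the library, with TMM factors) in either genotype. Glial genes were also present, with a summed level of 583 to 963 CPM over 8 listed genes in replicates 2 to 5 but of 199 CPM in dSERT4 replicate 1 and 92.1 CPM in dSERT16 replicate 1, and moody and alrm were listed at 0 in every sample. Of the targeted gene SerT, which marks serotonergic neurons, dSERT4 replicates 1 to 5 held 183, 51, 64, 69 and 19 reads and dSERT16 replicates 1 to 5 held 51, 16, 40, 6 and 5. On the CPM scale, SerT was lower in dSERT16 on each of the 5 dates.

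How reads were assigned to genes bears on several values below. Of the genes that lie inside the span of a gene on the other strand and share no exon base with it, 148 had at least 100 reads in the strand-specific columns of every sample, and 148 of these 148 were at 0 in the column without strand that is used here. Reads therefore counted for a gene only where no other gene's span lay, with introns included, and a listed gene at 0 need not be silent. No other feature lay over the spans of Fas1 and Dscam2, and none lay over the exons of Fas2, Fas3, Nrg, CadN and CadN2. In Dscam4 174 exon bases and in Ten-a 739 exon bases lay under other genes. By exon bases Dscam1 was the member most affected, with 4134 of its 26496 exon bases (15.6%) under 2 antisense RNA genes, asRNA:CR44071 and asRNA:CR45129. The sum of the strand-specific columns keeps reads under a gene of the other strand, but not under a gene of the same strand. It gave 26.6% to 40.6% more reads for Dscam1 and at most 5.88% more for any other member in any sample. That highest value was in CadN2. The 739 exon bases of Ten-a lay under a gene on its own strand, and 28.6% of its span lay under other features. For Ten-a the sum therefore does not measure how many reads were lost. In the strand-specific sum, the reads of Dscam1 and of genes on its other strand are still those of a library that does not mark strand, so reads of the antisense RNAs and of Dscam1 cannot be told apart there.

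The 10 genes together took 0.720% to 0.908% of the reads on genes, and Fas1 alone took 62.6% to 71.0% of these. Fas1 (FBgn0285925, chromosome 3R, 16625238 to 16639771 in BDGP6, forward strand) stood at 5248, 5988, 4749, 5710.0 and 5383 CPM in dSERT4 replicates 1 to 5. In dSERT16 it stood at 4748, 6372, 5874, 5640.2 and 6314 CPM. The lowest sample was that of replicate 1 in dSERT16 and of replicate 3 in dSERT4, and the genotypes overlapped. Fas1 had more reads per kilobase of exon than 99.8% of 8659 genes, and 17 genes stood above it. Per kilobase of the whole gene span, 99.1% of the genes were below it and 75 above.

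**Figure D1:**
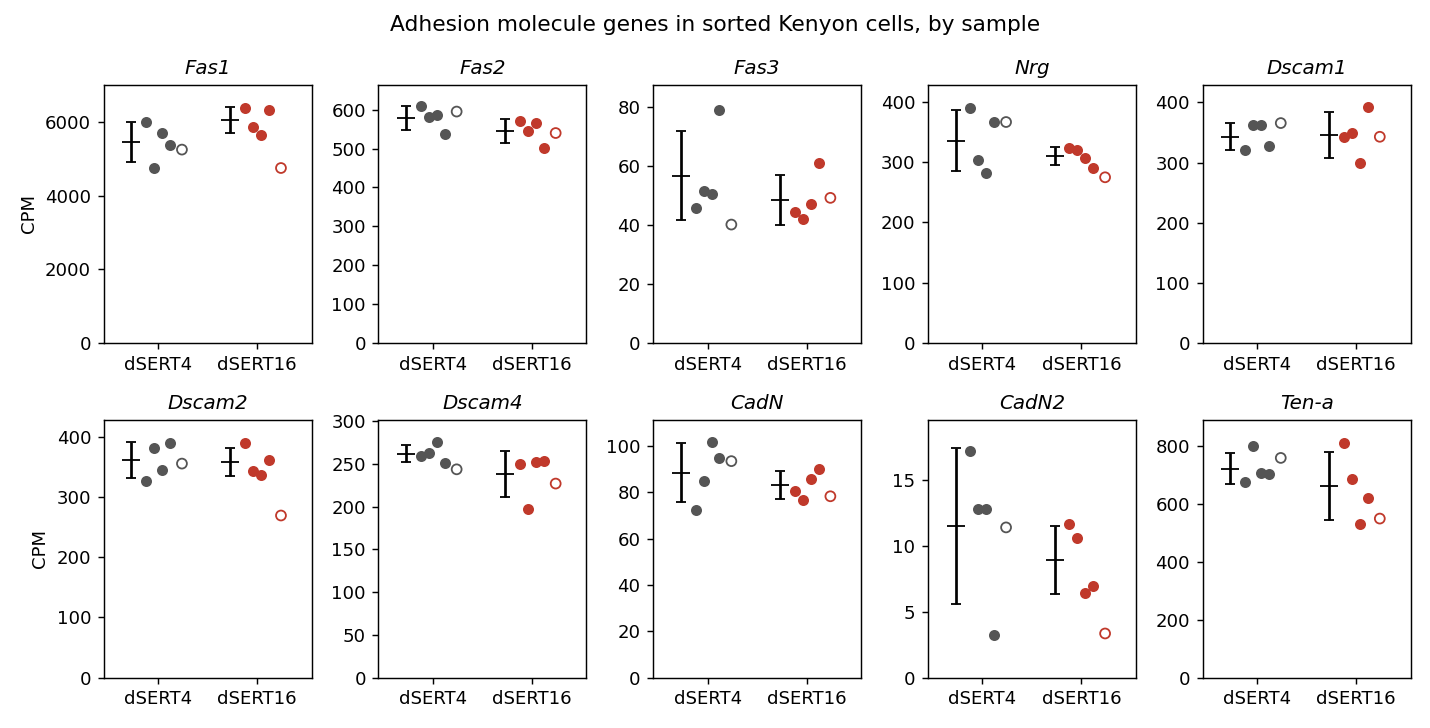
Levels of the 10 adhesion genes in CPM (vertical axes, each from 0) in dSERT4 (grey) and dSERT16 (red). Filled points are replicates 2 to 5, open points replicate 1, and bars the mean ± SD of replicates 2 to 5. The genotypes overlap in every panel, from Fas1 at 4748 to 6372 CPM to CadN2 at 3.20 to 17.2 CPM.

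Levels of different genes can be compared only per length, and the order depended on the length used. In the TPM values of the authors' table, the median over the 8 samples with such a column was 1695 for Fas1, 47.9 for Dscam2, 34.9 for Nrg, 31.9 for Fas2, 23.8 for Dscam4, 22.6 for Dscam1, 10.1 for Ten-a, 2.78 for Fas3, 2.73 for CadN and 0.526 for CadN2. The ranges of Nrg and Fas2, of Dscam4 and Dscam1, and of Fas3 and CadN overlapped, so the members of these pairs did not differ beyond their spread. These TPM values were proportional to the read count divided by the whole gene span. Over 5799 genes with enough reads, 99.97% of the values lay within 2% of that proportion, against 20.7% within 10% when the length of the annotated exons was used. A gene with long introns is thereby placed low on the TPM scale, and exons cover only 5.85% of the 292 kb span of Ten-a but 42.0% of the 30.7 kb span of Dscam2.

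In CPM of the reads on genes (here without TMM scaling) per kilobase of annotated exons, the order was Fas1 (median 1204), Fas2 (77.3), Ten-a (40.3), Nrg (31.5), Dscam4 (31.5), Dscam2 (27.3), Dscam1 (13.0), Fas3 (7.47), CadN (6.00) and CadN2 (1.38), and this order was the same in dSERT4 and in dSERT16. Ten-a moved from place 7 to place 3 and Fas2 from 4 to 2, while Dscam2 went from 2 to 6. Fas1, Fas2 and CadN2 did not overlap with any neighbour, and neither did Dscam2 with Dscam1, whereas each other neighbouring pair overlapped. For Dscam1 the length is itself in doubt, since its annotated exons include all alternatives of a gene with 75 annotated transcripts. With the longest transcript, 9.14 kb, as the length, Dscam1 stood at 37.6, between Nrg at 42.6 and Dscam2 at 35.0. On that scale the range of Dscam1 overlapped those of Nrg and Dscam2, so its separation from Dscam2 depends on the length used. The share of intronic reads in these counts was not tested.

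**Figure D2:**
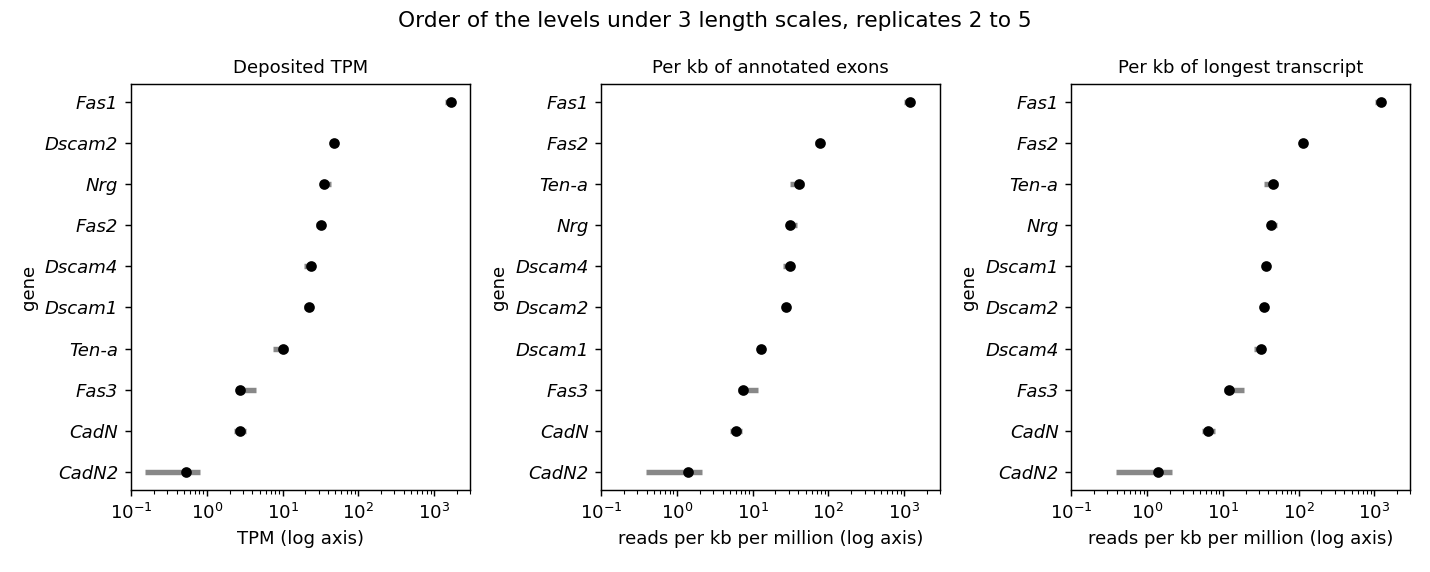
Levels of the 10 genes in replicates 2 to 5 of both genotypes, ordered by the median (points) with the range over 8 samples (grey bars), on log axes. From left to right the axes give the deposited TPM, CPM per kilobase of annotated exons, and CPM per kilobase of the longest transcript. Fas1 is highest and CadN2 lowest on each, while Ten-a moves from place 7 to place 3.

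The comparison of dSERT16 with dSERT4 asked whether loss of the transporter changes transcript levels in KCs. None of the 10 adhesion genes passed the test, and 8 of the 10 estimates lay below 0, from a log2 fold change (dSERT16 over dSERT4) of -0.37 for CadN2 to 0.15 for Fas1. With edgeR's quasi-likelihood test and Benjamini-Hochberg adjustment over the 8690 features tested, 43 features (0.495%) had an adjusted p under 0.05, of which 23 were higher and 20 lower in dSERT16. Of the 10 members, 0 were called by edgeR, 0 by DESeq2, and 0 had an unadjusted p under 0.05, against 7.01% of all features. Their adjusted p in edgeR ran from 0.792 to 0.996. The median log2 fold change was -0.10 over the members and 0.00 over all features. The median size without sign was 0.12 over the members and 0.15 over all features. Of the members 0 had genotypes that did not overlap, against 4.89% of all features.

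A missed threshold does not show equal levels, so the intervals matter. For 8 of the 10 genes the 95% interval lay within a 1.5-fold change in either direction, and the intervals of Fas3 and CadN2 reached beyond it. The replicate samples were separate collections of pooled brains.

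Among the fasciclins and Nrg, Fas1 had the highest estimate. Its mean was 5457 ± 533 CPM in dSERT4 and 6050 ± 352 CPM in dSERT16 (SD, n = 4 each), a log2 fold change of 0.15 ± 0.08 (SE), with a 95% interval from -0.02 to 0.32 and an adjusted p of 0.792 (edgeR). On the 5 collection dates the log2 ratio of Fas1 was -0.14, 0.09, 0.31, -0.02 and 0.23, so the dates did not go one way. With 1 sample left out the Fas1 estimate ran from 0.09 to 0.20.

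Fas2 (FBgn0000635, X, 4132887 to 4206093, reverse strand) stood at 595, 609, 581, 586 and 537 CPM in dSERT4 replicates 1 to 5. In dSERT16 it stood at 540.1, 571, 545, 565 and 502 CPM. The dSERT16 sample was lower on 5 of 5 dates, by little each time, and replicate 5 was the lowest sample in each genotype. Fas2 was the only member to go one way on all dates, replicate 1 included. The share of all features that did so was not counted, so this is a description and not a trait particular to Fas2. The log2 ratio within dates ran from -0.14 to -0.05. The estimate of the test was -0.08 ± 0.08 (SE), with a 95% interval from -0.25 to 0.08 and an adjusted p of 0.912 (edgeR), and it ran from -0.11 to -0.04 with 1 sample left out. Fas2 varied little for a gene in these samples, with a biological coefficient of variation of 0.0965, and 1.17% of the features tested had a smaller one.

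Fas3 (FBgn0000636, 2L, 18320102 to 18393441, forward strand) had much lower levels, from 40.2 to 79.1 CPM over the 10 samples, and the highest value was that of dSERT4 replicate 5. On the dates of replicates 2 to 5 Fas3 was lower in dSERT16, and on that of replicate 1 it was higher. Its log2 fold change was -0.22 ± 0.17 (SE), with a 95% interval from -0.59 to 0.15 and an adjusted p of 0.879 (edgeR). Leaving out 1 sample at a time moved it from -0.35 to -0.02.

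Nrg (FBgn0264975, X, 8517373 to 8555170, forward strand) had a mean of 336 ± 51.0 CPM in the dSERT4 samples and 311 ± 14.7 CPM in the dSERT16 samples (SD, n = 4 each), with a log2 fold change of -0.11 ± 0.10 (SE). On the dates of replicates 1, 2 and 5 Nrg was lower in dSERT16, and on those of replicates 3 and 4 it was higher. With 1 sample left out the Nrg estimate ran from -0.19 to -0.03.

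Of the Dscam genes, Dscam1 (FBgn0033159, 2R, 7317924 to 7381899, reverse strand) lies on the chromosome arm of SerT, 17022695 bp away from it. It stood at 366, 321, 362, 362 and 328 CPM in dSERT4 replicates 1 to 5 and at 343, 342, 349, 299.5 and 393 CPM in dSERT16. The highest and the lowest of the 10 samples were both dSERT16 samples. The log2 fold change was 0.01 ± 0.09 (SE, adjusted p = 0.996, edgeR), with a 95% interval from -0.19 to 0.21, and it was 0.03 when the reads under the antisense genes were kept.

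Dscam2 (FBgn0265296, 3L, 7159199 to 7189931, reverse strand), whose isoforms differ between neuron types, ranged from 327 to 390 CPM in replicates 2 to 5 of dSERT4 and from 336 to 389 CPM in those of dSERT16, with a log2 fold change of -0.01 ± 0.09 (SE). The lowest Dscam2 level of the 10 samples, 269 CPM, was that of dSERT16 replicate 1.

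Dscam4 (FBgn0263219, 3L, 8238647 to 8282398, forward strand) stood at 244, 259, 262, 275 and 251 CPM in dSERT4 replicates 1 to 5 and at 227, 249.7, 198, 252 and 253 CPM in dSERT16. The dSERT16 samples of replicates 3 and 1 were the lowest of the 10. The log2 fold change was -0.14 ± 0.09 (SE, adjusted p = 0.850, edgeR). Leaving out 1 sample at a time moved it from -0.17 to -0.06. In a two-sided exact permutation test on log2 CPM, Dscam4 had the lowest p of the members, 0.0857, where 4 samples against 4 can reach 0.0286. This is the lowest of 10 values and was not adjusted for their number. In edgeR the unadjusted p was 0.164 for Dscam4 and 0.0809 for Fas1.

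Of the cadherins, CadN2 was the least abundant member on each scale. CadN (FBgn0015609, 2L, 17647053 to 17778340, reverse strand) had a mean of 88.5 ± 12.7 CPM in the dSERT4 samples and 83.3 ± 5.92 CPM in the dSERT16 samples (SD, n = 4 each), with a log2 fold change of -0.09 ± 0.12 (SE) that ran from -0.17 to -0.01 with 1 sample left out. CadN2 (FBgn0262018, 2L, 17786971 to 17875247, reverse strand) is its neighbour, 8630 bp away. It stood at 11.4, 17.2, 12.8, 12.8 and 3.20 CPM in dSERT4 replicates 1 to 5 and at 3.35, 11.7, 10.6, 6.45 and 6.95 CPM in dSERT16.

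In CPM the lowest CadN2 samples were dSERT4 replicate 5, with 66 reads, and dSERT16 replicate 1, with 216 reads, each below the other samples of its genotype. In reads, dSERT16 replicates 4 and 5 were lower, with 119 and 151, in smaller libraries. The log2 fold change of CadN2 was -0.37 ± 0.39 (SE), and its 95% interval ran from -1.21 to 0.48, the widest of the 10 (adjusted p = 0.930, edgeR). Within dates the log2 ratio ran from -1.77 to 1.12, and leaving out 1 sample at a time moved the estimate from -0.67 to -0.10. CadN2 also had the largest biological coefficient of variation of the members, 0.397, against a median of 0.197 over all features.

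Ten-a (FBgn0267001, X, 12043698 to 12335214, forward strand) stood at 759, 676, 799.5, 707 and 704 CPM in dSERT4 replicates 1 to 5. In dSERT16 it stood at 549, 811, 686, 530.4 and 622 CPM. The highest and the lowest sample were both of the dSERT16 genotype, and dSERT16 was lower on 4 of 5 dates, with replicate 2 as the exception. The log2 fold change was -0.12 ± 0.11 (SE), with a 95% interval from -0.36 to 0.11 and an adjusted p of 0.910 (edgeR). Leaving out 1 sample at a time moved it from -0.23 to -0.03.

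**Figure D3:**
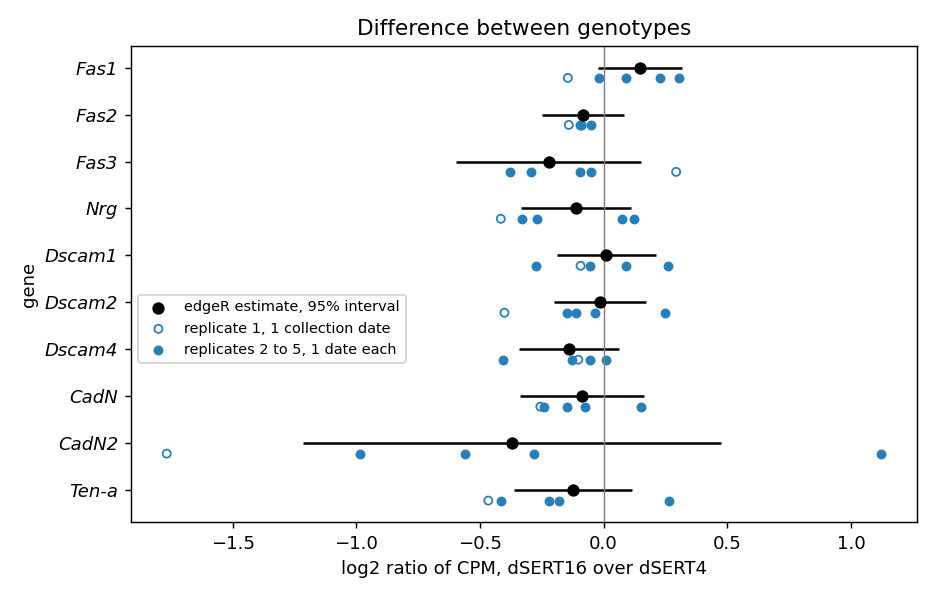
Log2 ratio of CPM, dSERT16 over dSERT4 (horizontal axis), for each of the 10 genes. Black points and lines are the edgeR estimate and its 95% interval from replicates 2 to 5, and blue points are the ratios on each collection date (open: replicate 1). Every interval includes 0, Fas2 lies below 0 on 5 of 5 dates, and CadN2 ranges from -1.77 to 1.12.

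Looked at by date, 9 of the 10 genes were lower in dSERT16 in replicate 1, 5 in replicate 2, 8 in replicate 3, 9 in replicate 4 and 6 in replicate 5. Over all features tested, between 49.3% and 50.4% were lower in dSERT16 on a given date. The 10 genes of a date were measured in the same pair of libraries, so these counts are not independent and carry no test.

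The balance within families was compared as shares of reads, in 3 shares tested with two-sided exact permutation tests and adjusted over the 3. CadN2 made up 11.7 ± 6.56% of the reads of CadN and CadN2 in dSERT4 and 9.73 ± 3.07% in dSERT16 (SD, n = 4 each, exact p = 0.600, adjusted p = 0.771). Dscam2 made up 37.3 ± 2.28% of the Dscam1, Dscam2 and Dscam4 reads in dSERT4 and 38.0 ± 1.61% in dSERT16 (exact p = 0.657, adjusted p = 0.771). Dscam3, with means of 202 CPM in dSERT4 and 201 CPM in dSERT16, was not part of this share. Dscam1 reads under the antisense genes were not counted either, which raises the Dscam2 share. With the sum of the strand-specific columns the difference in this share was 0.230 percentage points. Ten-a made up 89.2 ± 3.63% of the reads of Ten-a and its paralog Ten-m in dSERT4 and 88.3 ± 4.04% in dSERT16 (exact p = 0.771, adjusted p = 0.771). No share differed beyond the spread between samples, and the Ten-a share was between 84.6% and 94.0% in each of the 10 samples.

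The wider adhesion machinery was described from 6 lists of 75 genes: 22 other Ig adhesion and guidance receptors, 14 other cadherins, 8 teneurin, neurexin and neuroligin genes, 7 integrins, 13 leucine-rich repeat proteins and 11 intracellular partners. Of the 70 tested, 0 were called between the genotypes by edgeR and 0 by DESeq2, and 6 had an unadjusted p under 0.05 in edgeR, where 0.495% of all features were called and 7.01% had such a p. The lowest adjusted p, 0.188 (edgeR), was that of dock, an adaptor protein that acts downstream of Dscam1, with 522 ± 28.0 CPM in dSERT4 and 640 ± 46.2 CPM in dSERT16 (SD, n = 4 each). It was chosen for mention after its value was seen. The medians of the lists ran from a log2 fold change of -0.30 for the integrins to -0.01 for the intracellular partners. The integrin median was over 6 tested genes, and each except mys had a mean of at most 12.2 CPM in dSERT4. With 168 CPM in dSERT4, mys had a log2 fold change of -0.15 ± 0.08 (SE). Ank2, the neuronal ankyrin that Nrg binds, was at 0 in every sample, and it lies within the span of CG32373 on the other strand. In the strand-specific columns Ank2 had 27572 to 112030 reads, with a log2 fold change of -0.05 and an adjusted p of 0.975 (edgeR). The libraries do not mark strand, so reads of Ank2 and of CG32373 cannot be told apart there. Of 73 genes of these lists tested on the strand-specific columns, 0 were called.

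Set among the 73 genes of the adhesion lists with an annotated length, per kilobase of exon, 0 genes stood above Fas1 and 11 above Fas2. The 73 include the intracellular partners, and arm, cora, p120ctn, dock, beta-Spec and alpha-Cat were among those above Fas2. Between 22 and 25 stood above Ten-a, Nrg, Dscam4 and Dscam2. Dscam1 had 35 above it, Fas3 36, CadN 39 and CadN2 50. The 10 genes were thus spread widely over the genes of these lists in these sorted cells, and genes at 0 that lie under another gene's span count as below them.

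Replicate 1, which the study set aside, was compared with replicates 2 to 5 in a fit of all 10 samples with genotype as a covariate. Here 84 of 8726 features (0.963%) were called by edgeR, 18 higher and 66 lower in replicate 1. Of the 10 members, 0 were called by edgeR, 0 by DESeq2, and 0 had an unadjusted p under 0.05 in edgeR, with log2 fold changes from -0.61 ± 0.49 (SE) for CadN2 to 0.04 ± 0.10 for Dscam1 and adjusted p from 0.340 to 0.998. On the same contrast 5 of the 6 glial genes tested were called lower, with a median log2 fold change of -2.52 over the 6. Eaat1, Gat and repo had log2 fold changes of -3.40 ± 0.28, -3.36 ± 0.32 and -2.51 ± 0.46 (SE), with adjusted p of 6.56e-05, 0.000483 and 0.0216 (edgeR). On this contrast the log2 fold change was -0.23 for Fas3, -0.21 for Dscam2, -0.20 for Fas1, -0.09 for Dscam4, -0.09 for Ten-a, -0.02 for Nrg, 0.00 for CadN and 0.01 for Fas2. The part of the glial difference in these values was not tested. Of the listed adhesion genes 0 were called in this comparison by edgeR, and the lowest adjusted p among them were those of mys, the β integrin subunit (0.0652), Ptp69D, a receptor phosphatase (0.0865), and alpha-Cat, which ties cadherins to actin (0.107).

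**Figure D4:**
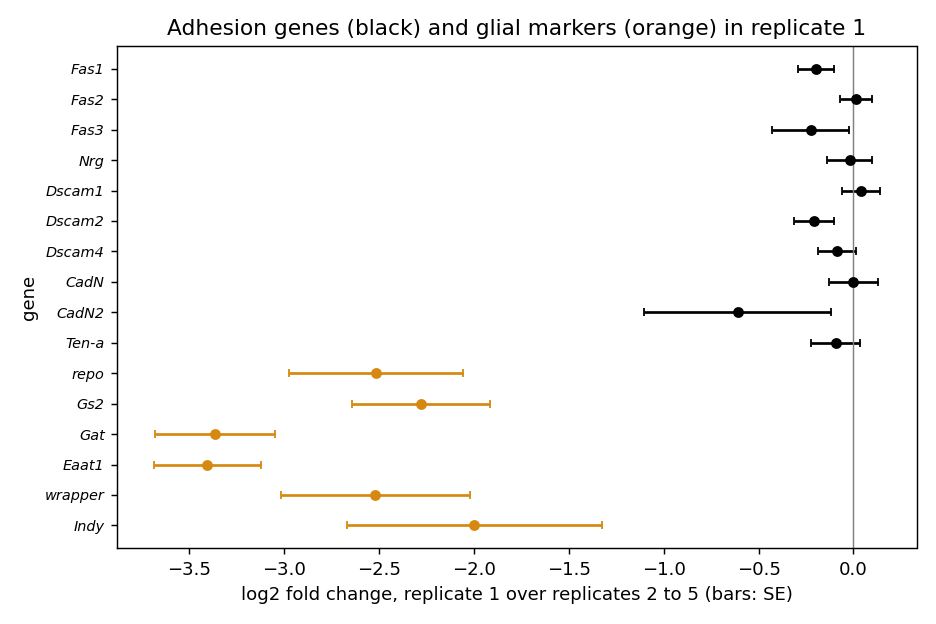
Log2 fold change of replicate 1 over replicates 2 to 5 (horizontal axis, bars are SE) for the 10 adhesion genes (black) and the 6 tested glial markers (orange), from the fit of all 10 samples. The adhesion genes lie between -0.61 and 0.04, and every glial marker lies below them, with a median of -2.52.

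For each member, the gene whose log2 CPM followed it most closely over the 10 samples, after the genotype means were subtracted, was sought among 8726 features. The 3 closest pairs were Dscam4 with CG1161 (Pearson r = 0.966), Fas2 with CG32276 (r = 0.964) and Ten-a with dnc (r = 0.963), the cAMP phosphodiesterase gene of olfactory memory. These are the highest of many correlations over 10 samples that share libraries and depth, and they are given as a description.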

How the data were processed

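RNA of sorted KCs was sequenced from 10 samples (SMART-seq v2 libraries). Alignment by the authors used STAR and BDGP6, and they deposited counts of uniquely mapped reads per gene without normalization. The authors' table gives TPM for replicates 2 to 5, used here for the order of levels, and log2 fold changes, p and adjusted p from DESeq2, which were not used. Reads without a feature (0.264% to 0.463% of the reads), ambiguous (8.84% to 9.85%), multimapping (0.875% to 1.13%) and unmapped reads (8.03% to 14.5%) stayed out of all totals. The annotation release and the counting options of the authors are not given in the sources used here. Gene positions, exon lengths and overlaps come from an Ensembl annotation of BDGP6.

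The main test, on the counts without strand, was the quasi-likelihood test of edgeR 4.0.16 (R 4.3.3; filterByExpr at its minimum count, 10, and minimum total, 15; TMM, robust quasi-likelihood fit, Benjamini-Hochberg adjustment, threshold 0.05). Genotypes were compared in replicates 2 to 5 without covariates. CPM were scaled by TMM over the 10 samples, and log2 CPM used a prior count of 2. SE is the absolute log2 fold change over the square root of F. DESeq2 1.42.0 and the other settings named in the closing section were alternatives. Python 3.11.15 made the summaries, and the scripts were tested on simulated data.

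The members and gene lists were chosen with earlier results of these data known. All 10 members are named. Of the lists, genes called between genotypes are named, and for replicate 1 up to 3 genes per list with the smallest adjusted p. Some further list genes are named for their levels, and dock for its adjusted p. Of the closest genes, the 3 pairs with the highest r are named. Pairing was checked because the labels of the genotypes share dates, read here as collection dates. By the study's account, both genotypes were also dissociated in parallel. The correlation of deviations from the genotype means within a date was 0.217, 0.104, 0.121, 0.0956 and 0.0546 for replicates 1 to 5, and between dates it ran from -0.148 to 0.0736. Replicates 1 to 4 lay above that range and replicate 5 within it. With replicate as a block in the fit of replicates 2 to 5, the lowest adjusted p of a member was 0.455 (Fas1, edgeR). The CadN2 estimate was -0.21 with the block and -0.37 without it.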

Additional observations from a re-analysis of the deposited data

How the results depend on the processing

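The 10 members gave 0 calls in both comparisons with DESeq2, its size factors in edgeR, no filter, the strand-column sum and each sample left out. Between genotypes they also gave 0 calls with a minimum of 10 counts in every sample, all 5 pairs and the replicate block, which were not run for replicate 1. The count of features called between genotypes, 43, was 149 with DESeq2, 77 without a filter, 66 with all 5 pairs, 54 with the replicate block and 94 with the replicate block on all 5 pairs, and it ran from 18 to 40 with 1 sample left out. The count for replicate 1, 84, was 509 with DESeq2 and ran from 23 to 136 with 1 sample left out. The cause of these moves was not tested.

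Some estimates of members that were not called changed sign. Between genotypes, Dscam1 was -0.00998 with all 5 pairs and -0.0131 with the replicate block on all 5 pairs, and with 1 sample left out Dscam1 ran from -0.0537 to 0.0804 and Dscam2 from -0.0532 to 0.0291. In replicate 1, without a filter, Nrg was 0.0169 and CadN 0.0360. There, with 1 sample left out, Fas2 ran from -0.0144 to 0.0501, Fas3 from -0.489 to 0.0189, Nrg from -0.175 to 0.135, Dscam1 from -0.0117 to 0.101, CadN from -0.0865 to 0.0894 and Ten-a from -0.269 to 0.0813. The difference in the Dscam2 share, 0.669 percentage points, was -0.416 with all 5 pairs. With 1 sample left out it ran from -0.0758 to 1.65, that of CadN2 from -4.75 to 0.553 and that of Ten-a from -2.19 to 0.801. In the order of levels, 5 members changed place per kilobase of exon and 6 per kilobase of the longest transcript, a length added after the data were seen.

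CadN2 had 66 to 826 reads and the largest spread of the members, and its 95% interval spans a change of -56.9% to 39.1%.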
